A study of Homo sapiens with 24 samples.

Results

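The comparison is of total RNA from OVCAR-3 cells treated with INK128 against total RNA from OVCAR-3 cells given the solvent DMSO, at 24 h. OVCAR-3 is an established human line of platinum-resistant high-grade serous ovarian cancer, and INK128 is an inhibitor of the kinase mTOR that acts on both of its complexes. The members were chosen by the titles of the arrays, which gave 2 INK128 arrays (0.25 µM INK128, no carboplatin) and 2 DMSO arrays (neither drug), 4 of the 24 Affymetrix Human Gene 2.0 ST arrays in the series. By their labels, 6 of the other arrays held total RNA of cells given 1 µM carboplatin for 5 h, alone or after 19 h of INK128, and 14 held polysome RNA, from the well-translated fraction of the lysates. Equal values in the study's supplementary tables place 4 of these arrays under another treatment, fraction or both. Both DMSO arrays of total RNA stand there under their own treatment and fraction, and the INK128 arrays were not compared in this way. Of the other total RNA arrays, 3 of carboplatin alone entered the fit as a further group that served only to estimate the spread. The question is which mRNAs differ in abundance, as opposed to translation, when mTOR is inhibited without a platinum drug.

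mTOR complex 1 senses amino acids, energy and growth factors, and promotes translation, ribosome production, lipid and nucleotide synthesis while it holds back autophagy and lysosome formation. mTOR complex 2 phosphorylates Akt and related kinases downstream of growth factor receptors. Inhibition of mTOR is known to slow passage through the cell cycle, to lower the transcription factor ATF4 and with it the genes of amino acid supply, and to release receptors and the MAP kinase pathway from feedback in many tumor lines. The model is a single cell line in culture, grown with insulin and serum, so that growth factor input was present in all groups, and each lysate pooled 3 plates.

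Signals are on the log2 scale of RMA, in which a difference of 1 is a doubling, and levels were not set against each other between genes, since probesets differ in brightness. INK128 was compared with DMSO for 7442 genes with a limma fit, and p-values were adjusted (Benjamini-Hochberg) over all of them, with 0.05 as the threshold. The pair of INK128 arrays was less alike than the pair of DMSO arrays, with correlations across the tested genes of 0.9483 and 0.9919. Each INK128 array was closer to DMSO array 1 (0.9557 for both) than to the other INK128 array, and INK128 array 2 was closest to a carboplatin array (0.9645). Between the INK128 arrays 285 genes lay over 1 log2 unit apart, 222 of them higher in array 1 and 63 higher in array 2, against 2 genes between the DMSO arrays. The median gene lay 0.03 above the DMSO mean in INK128 array 1 and at -0.12 from it in INK128 array 2. Values are therefore given for each INK128 array where the 2 differ. With 2 arrays a group, precision is limited throughout.

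**Figure D1:**
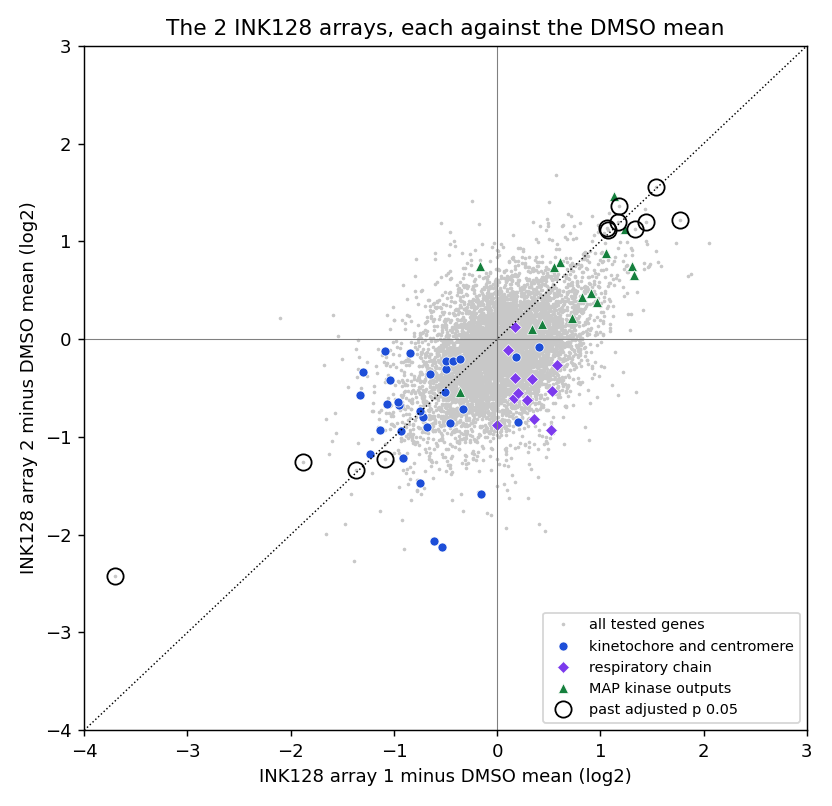
Each tested gene's log2 signal in INK128 array 1 (horizontal axis) and INK128 array 2 (vertical axis), both minus the mean of the 2 DMSO arrays, with equal values on the dotted diagonal. The 12 genes past the adjusted threshold (circles) lie at over 1 log2 unit in both arrays. Kinetochore and centromere genes lie mostly below 0 in both and MAP kinase outputs mostly above 0 in both. The 12 tested respiratory chain genes, of 73 listed, all lie above 0 in array 1, with 11 of 12 below 0 in array 2.

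With INK128, 8 genes rose (0.107% of those tested) and 4 fell (0.0537%) at an adjusted limma p under 0.05. PI15, a secreted peptidase inhibitor of the CAP family, showed the largest change. Its log2 signals were 5.79 and 7.07 in the INK128 arrays, against 9.07 and 9.92 in the DMSO arrays, an 8.38-fold lower level with a log2 change of -3.07 ± 0.42 (SE, n = 2 each; adjusted p = 0.0462). The groups were far apart, although the INK128 arrays differed by 1.28. POLR3G, a subunit of RNA polymerase III that is high in stem and tumor cells, had 6.90 and 7.52 with INK128, against 8.75 and 8.81 with DMSO. Its level was 2.96-fold lower (log2 change -1.57 ± 0.24, adjusted p = 0.0495). CPM, the membrane-bound carboxypeptidase M that trims peptides such as EGF, had 8.73 and 8.75 with INK128, against 10.08 and 10.10 with DMSO. Both pairs were tight, and the fall was 2.55-fold. KBTBD8, an adaptor of a cullin ubiquitin ligase, had 6.05 and 5.90, against 7.04 and 7.22, a 2.23-fold fall that was of like size in both INK128 arrays.

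SCEL, which encodes sciellin, a precursor of the cornified envelope, showed the largest rise, with 10.06 and 10.09 in the INK128 arrays, against 8.45 and 8.60 in the DMSO arrays. This was 2.93-fold (log2 change 1.55 ± 0.22, SE, n = 2 each; adjusted p = 0.0462), and the INK128 arrays differed by 0.02. TMC4, of the transmembrane channel-like family, had 9.91 and 9.36 with INK128, against 8.21 and 8.08 with DMSO, and was 2.82-fold higher. ARSG, a lysosomal sulfatase, had 8.24 and 8.0, against 6.86 and 6.74, and was 2.50-fold higher. The arrays of the groups stayed over 1 log2 unit apart for all 3 genes. EGFR, the epidermal growth factor receptor, had 9.92 and 9.96 with INK128, against 8.92 and 8.76 with DMSO, a 2.13-fold rise (log2 change 1.09 ± 0.17, adjusted p = 0.0495). EPHA3, a receptor of ephrins, had 8.72 and 8.51, against 7.31 and 7.44, a 2.35-fold rise. PDGFRL, a secreted protein that resembles the receptor of platelet-derived growth factor, had 9.92 and 10.10, against 8.77 and 8.71, and rose 2.41-fold. FRY, a large protein of microtubules and the NDR kinase pathway, had 7.79 and 7.81, against 6.60 and 6.63, a 2.27-fold rise. FLJ42627, a noncoding RNA gene, had 8.59 and 8.66, against 7.55 and 7.50, a 2.14-fold rise. In each of the 12 genes both INK128 arrays lay on the same side of both DMSO arrays, which held for 20.6% of all tested genes on the higher and 29.3% on the lower side.

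**Figure D2:**
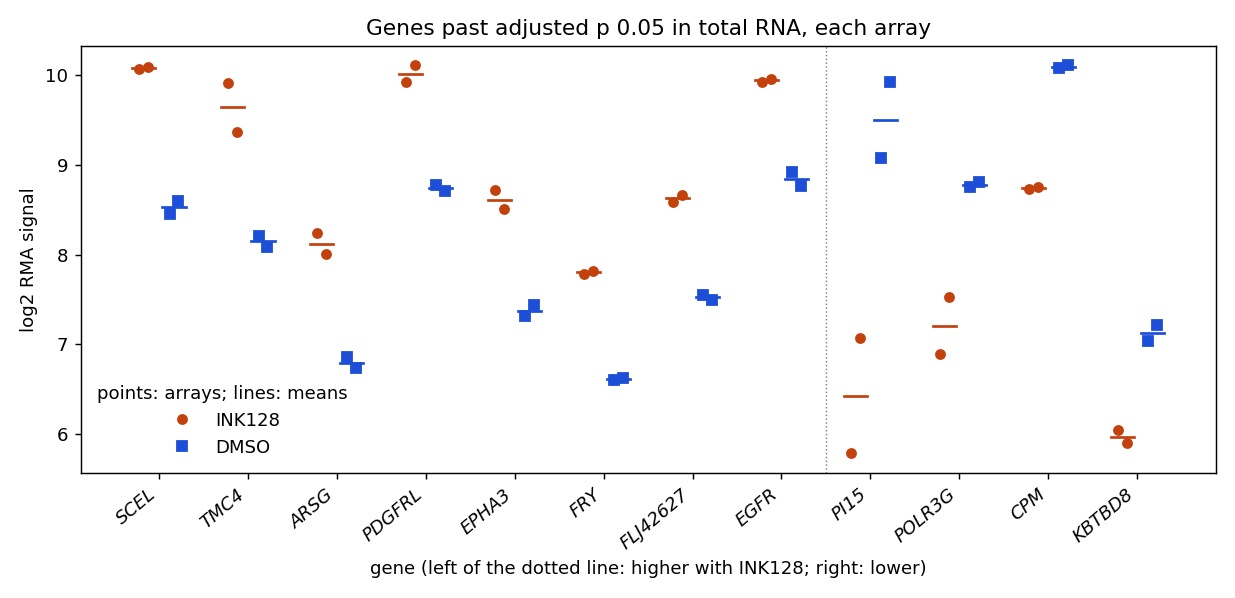
Log2 RMA signals (vertical axis) of the 12 genes past the adjusted threshold in total RNA, with INK128 arrays as orange circles left of the DMSO arrays as blue squares and a line at each mean of 2 arrays. The groups do not overlap for any of the 12 genes, and the spread within INK128 is widest for PI15, at 5.79 and 7.07.

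All 12 adjusted p-values lay between 0.0462 and 0.0495, so these calls stood close to the threshold. Without any single array of the 7 other than INK128 array 2 no gene was called, with 403 to 1579 genes at an unadjusted p under 0.05, and without INK128 array 2 there were 32 calls, which kept 8 of the 12. In the fit of the 4 arrays alone 0 genes were called, with a smallest adjusted p of 0.159 and 1205 genes at an unadjusted p under 0.05. The direction of each of the 12 changes was the same in every alternative that tested the gene. This could hardly have come out otherwise and is no test of the calls. Most alternatives left the log2 change as it was, and both INK128 arrays lay on the same side of both DMSO arrays. The values just inside and outside the threshold were alike. CRLF2, a cytokine receptor subunit, had 7.17 and 7.22 with INK128, against 6.12 and 6.15 with DMSO, at an adjusted p of 0.0533. FOXK1, a forkhead repressor of autophagy genes, had 10.41 and 10.14, against 9.26 and 9.05, at 0.0571. Both DMSO signals of CRLF2 lay under the filter value of 6.54, which was applied to means that included INK128 arrays.

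Of the genes just beyond the threshold on the lower side, SUV39H2, a methyltransferase of histone H3 in heterochromatin, had 8.13 and 8.41 with INK128, against 9.42 and 9.54 with DMSO (log2 change -1.21, adjusted p = 0.0506). PSAT1, an enzyme of serine synthesis, had 10.06 and 9.18, against 11.45 and 11.45 (log2 change -1.83, adjusted p = 0.0508). RAD54B, a motor protein of homologous recombination, had 8.34 and 8.35, against 9.36 and 9.48 (log2 change -1.08, adjusted p = 0.0696). For all 3 genes the nearest arrays of the groups lay over 1 log2 unit apart. DSEL, an enzyme of dermatan sulfate, differed by -1.12, C3orf52 by -1.01 and METTL4, a methyltransferase, by -1.03, with adjusted p-values between 0.0571 and 0.0696. In all, 52 genes were higher and 48 lower at an adjusted p under 0.10.

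By the thresholds that the study's methods set for total RNA, an unadjusted p under 0.05 and a log2 change of at least 1, 43 genes were higher (0.578%) and 53 lower (0.712%) with INK128. By the unadjusted p alone 442 genes were higher (5.94%) and 724 lower (9.73%). The gene lists below are described by this last count and by their median, and no list was tested as a whole. The shares of 5.94% higher and 9.73% lower are the background for each list count below. The lists were chosen with earlier results of these data known, so a count above that background is not independent support. The count by the methods' thresholds was 245 without INK128 array 1, 193 without INK128 array 2 and 145 without DMSO array 1.

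The mRNA of the drug's target did not pass the test. MTOR had 10.41 and 10.14 with INK128, against 10.38 and 10.34 with DMSO, a log2 change of -0.09 ± 0.18. AKT1S1, which encodes the PRAS40 subunit of complex 1, differed by 0.08 ± 0.18, DEPTOR, an inhibitor of both complexes, by 0.23 ± 0.25, and EIF4EBP1, the translation repressor that mTOR phosphorylates, by -0.13 ± 0.22. RPTOR, RICTOR, MLST8 and RPS6KB1 were not analysed here. Among 19 tested subunits and regulators of mTOR, 0 were called, and the 4 with an unadjusted p under 0.05 included 3 upstream inhibitors. DDIT4, a stress-induced inhibitor of complex 1, had 7.02 and 6.60 with INK128, against 8.61 and 8.38 with DMSO, 3.22-fold lower with an adjusted p of 0.0696. SESN2, which relays leucine shortage to complex 1, had 7.59 and 7.95, against 8.60 and 8.64. TSC2, the brake on Rheb, differed the other way, with 10.28 and 10.02, against 9.49 and 9.24 (log2 change 0.78). The remaining gene, FNIP2, a partner of folliculin, differed by -0.52, and 1 gene in place of 3 was lower with either DMSO array left out.

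Among genes of cell division, many were lower with INK128 by the unadjusted p. Over 5 lists that cover kinetochores, mitosis, DNA replication, the G1/S step and homologous recombination, 131 genes were tested, and 82 of them were lower and 1 higher at an unadjusted p under 0.05, against 9.73% lower and 5.94% higher among all tested genes. None of the 131 was called after adjustment. The 5 lists were chosen with earlier results of these data known, so the excess over these shares is a description and not independent support. The median log2 change was -0.75 over 30 kinetochore and centromere genes, -0.62 over 26 replication genes, -0.51 over 17 recombination and Fanconi anemia genes, -0.50 over 36 mitotic genes and -0.49 over 24 G1/S genes, beside -0.04 over all tested genes.

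The kinetochore is the protein layer that ties chromosomes to the spindle. Of the 30 tested genes in its list, 21 were lower at an unadjusted p under 0.05 and 0 were higher. Both INK128 arrays lay below both DMSO arrays for 27 of the 30, beside 29.3% of all tested genes. CENPI, of the inner kinetochore, had 8.65 and 8.71 with INK128, against 9.86 and 9.91 with DMSO (2.31-fold lower, adjusted p = 0.0696). NDC80, which grips the microtubule, had 9.32 and 9.53, against 10.51 and 10.40 (2.04-fold lower, adjusted p = 0.0696). The difference was of like size in both arrays for CENPN, with 8.98 and 8.99, against 9.66 and 9.79. CENPA, the histone variant that marks centromeres, had 9.22 and 9.15, against 10.00 and 9.88. For 2 members the INK128 arrays were far apart: CENPW had 7.34 and 5.89, against 8.04 and 7.86, and OIP5, which helps to load CENPA, had 8.61 and 7.01, against 9.03 and 9.26. The list median was -0.70 in INK128 array 1 and -0.66 in INK128 array 2, and with each array left out in turn 14 to 20 members were lower.

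Among mitotic kinases and regulators 24 of 36 genes were lower at an unadjusted p under 0.05 and 0 higher. MELK, a kinase of proliferating cells, had 10.03 and 9.60 with INK128, against 10.94 and 10.94 with DMSO (2.18-fold lower, adjusted p = 0.0883). CDK1, the kinase that starts mitosis, had 9.31 and 9.63, against 10.20 and 10.31. Its partner CCNA2 had 11.19 and 11.31, against 11.90 and 11.93, and the other partner CCNB1 had 9.25 and 8.24, against 9.57 and 9.54. So all 3 were lower in both INK128 arrays, with array 2 much lower for CCNB1. FOXM1, a transcription factor of mitotic genes, had 9.85 and 9.90, against 10.33 and 10.35. BIRC5, which encodes survivin of the chromosomal passenger complex, had 9.20 and 7.77, against 9.44 and 9.63. The count was 11 without DMSO array 1 and 9 without DMSO array 2, while the list median was -0.48 and -0.56 in the INK128 arrays.

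Of 26 tested genes of the replication machinery, 17 were lower at an unadjusted p under 0.05 and 0 higher. MCM10, which helps to start the replicative helicase, had 7.97 and 7.35 with INK128, against 8.78 and 8.88 with DMSO (2.26-fold lower, adjusted p = 0.0724). CLSPN, an adaptor of the replication checkpoint, had 7.06 and 6.77, against 7.87 and 7.99. PCNA, the sliding clamp, had 9.77 and 9.11, against 10.51 and 10.60. These 3 genes were lower in array 2 than in array 1, as were 21 of the 26, and the list median was -0.37 in INK128 array 1 and -0.82 in INK128 array 2. TIPIN, which steadies the fork, was lower in array 1 instead, with 7.06 and 7.91, against 8.60 and 8.84. The count was 10 without DMSO array 1, 11 without DMSO array 2 and 11 without INK128 array 2.

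In the G1/S list 12 of 24 genes were lower and 1, MYC, was higher at an unadjusted p under 0.05. E2F7, a repressor that acts late in the E2F wave, had 8.50 and 8.05 with INK128, against 9.37 and 9.38 with DMSO (2.15-fold lower). CDC25A, a phosphatase that activates cyclin-dependent kinases, had 7.67 and 6.86, against 8.32 and 8.45 (2.17-fold lower). CCNE2, a cyclin of S phase entry, had 8.30 and 8.15, against 8.94 and 9.17. The lower count was 4 without DMSO array 1, 5 without DMSO array 2 and 7 without INK128 array 2. In homologous recombination 9 of 17 genes were lower and 0 higher, and the count stayed between 6 and 8 with 1 array left out. XRCC2, a recombination factor, had 9.18 and 9.22, against 9.99 and 10.24. RAD54L had 7.50 and 7.27, against 8.23 and 8.39. EXO1, the nuclease of end resection, had 8.70 and 8.46, against 9.44 and 9.61. For all 3 the arrays of the groups were well apart. Other DNA repair and checkpoint genes had a median of -0.27, with 8 of 28 lower and 1 higher, or 4 lower with either DMSO array left out. Condensin and cohesin genes had 5 of 12 lower, or 2 without DMSO array 2 and 3 without DMSO array 1 or INK128 array 1.

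**Figure D3:**
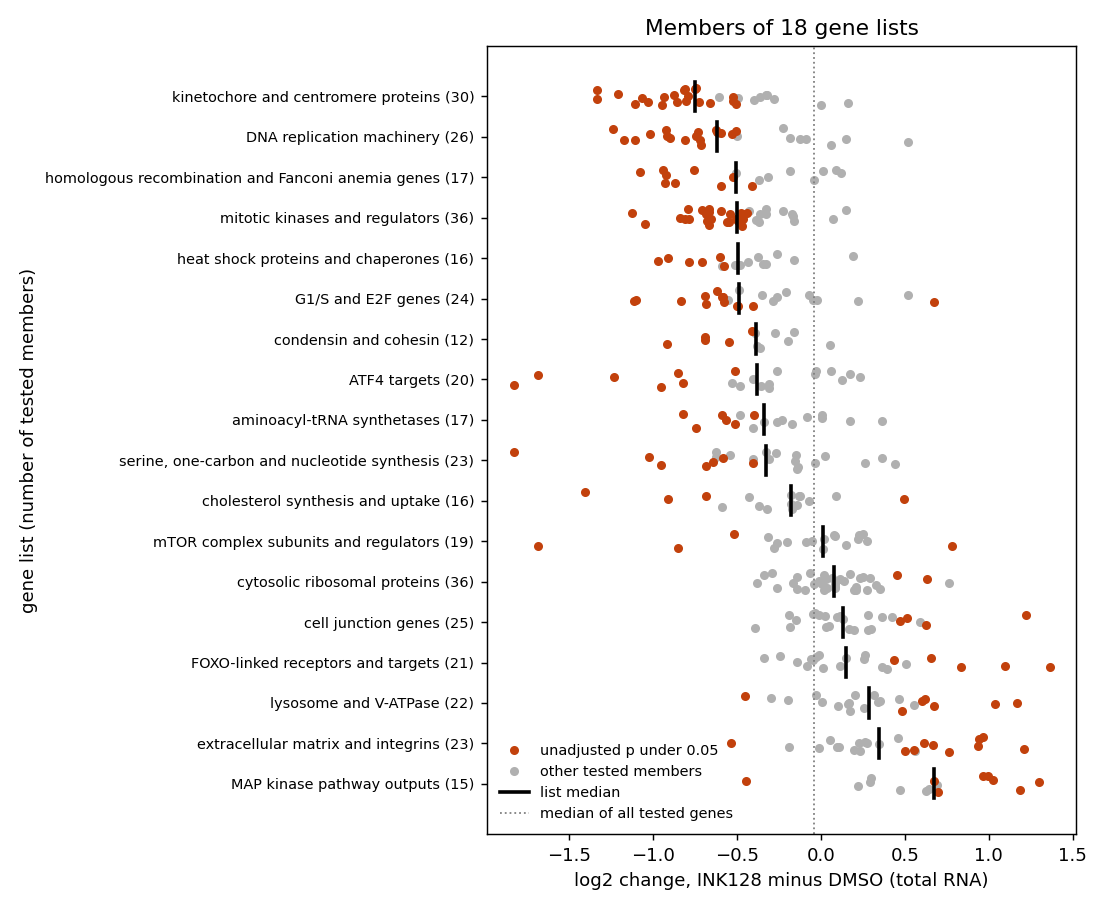
Log2 change in total RNA, INK128 minus DMSO, of each tested member (points, horizontal axis) of 18 gene lists (rows, number of tested members in brackets), with orange for an unadjusted p under 0.05, black bars for list medians and a dotted line for the median of all tested genes. Medians run between -0.75 for kinetochore and centromere genes and 0.67 for MAP kinase outputs, beside -0.04 over all tested genes.

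The promoters of the cell division genes were searched for short motifs. The sequences are from RefSeq on GRCh38.p14, 250 bases before to 50 after the first listed gene start, and a promoter was found for 6025 of the 7442 tested genes. Motifs were searched on both strands, and a match describes the letters only. The CHR element, searched as TTTGAA and with C in the middle as TTCGAA, was present in 22 of 30 promoters of mitotic genes (73.3%) and 13 of 24 of kinetochore genes (54.2%), beside 16.6% of all 27305 promoters and 11.2% of those of tested genes. The CCAAT box (CCAAT) was present in 76.7% of the mitotic and 62.5% of the kinetochore promoters, beside 35.7% of all. The E2F core, searched as TTCCCGC and in other forms as TTTGGCG and also as GGCGGGA, was present in 16 of 21 replication promoters (76.2%) and 14 of 19 G1/S promoters (73.7%), beside 19.5% of all promoters and 32.5% of those of tested genes. Shown are the promoters of the member with the smallest p among those with a match in each of these 4 lists. Capitals mark only the motifs searched in that gene's list, and matches of the other motifs stay in lower case. In KIF23, a kinesin of cytokinesis, the capitals mark a CCAAT box on the minus strand and a CHR element. In NDC80 they mark 2 adjoining CHR elements, and in MCM10 and CDC25A they mark E2F cores.
KIF23 promoter, chr15:69414099-69414398, plus strand: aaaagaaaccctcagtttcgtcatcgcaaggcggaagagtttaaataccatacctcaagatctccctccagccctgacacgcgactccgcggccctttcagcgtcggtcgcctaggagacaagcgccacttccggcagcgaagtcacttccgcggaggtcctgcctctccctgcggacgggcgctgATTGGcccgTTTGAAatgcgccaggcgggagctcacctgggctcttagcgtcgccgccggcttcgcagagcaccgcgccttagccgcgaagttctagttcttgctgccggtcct
NDC80 promoter, chr18:2571307-2571606, plus strand: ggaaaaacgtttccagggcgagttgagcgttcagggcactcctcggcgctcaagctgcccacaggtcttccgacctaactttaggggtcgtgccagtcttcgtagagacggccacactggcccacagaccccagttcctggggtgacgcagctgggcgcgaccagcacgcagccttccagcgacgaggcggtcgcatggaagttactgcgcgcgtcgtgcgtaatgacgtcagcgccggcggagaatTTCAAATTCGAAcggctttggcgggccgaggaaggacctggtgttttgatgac
MCM10 promoter, chr10:13161308-13161607, plus strand: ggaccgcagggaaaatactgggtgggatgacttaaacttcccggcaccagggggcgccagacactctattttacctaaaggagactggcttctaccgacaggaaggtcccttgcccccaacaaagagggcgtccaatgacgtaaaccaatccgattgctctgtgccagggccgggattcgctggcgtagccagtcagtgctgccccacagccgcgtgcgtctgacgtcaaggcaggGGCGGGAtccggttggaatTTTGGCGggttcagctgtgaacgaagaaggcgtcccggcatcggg
CDC25A promoter, chr3:48188368-48188667, minus strand: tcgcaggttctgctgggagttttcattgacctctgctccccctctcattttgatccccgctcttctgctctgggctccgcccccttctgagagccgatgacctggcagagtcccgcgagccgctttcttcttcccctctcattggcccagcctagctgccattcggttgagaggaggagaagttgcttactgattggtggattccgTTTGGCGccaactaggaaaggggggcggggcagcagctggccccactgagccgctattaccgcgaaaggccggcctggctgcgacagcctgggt

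ATF4 is a transcription factor of amino acid supply. Of its 20 tested targets, 7 were lower at an unadjusted p under 0.05 and 0 higher, 13 did not pass and 0 were called, with a median of -0.38 that was -0.13 in INK128 array 1 and -0.57 in INK128 array 2. The largest differences were in serine and asparagine synthesis and in stress regulators. ASNS, asparagine synthetase, had 6.66 and 6.09 with INK128, against 7.63 and 7.58 with DMSO (2.35-fold lower, adjusted p = 0.0768). PSPH, the last enzyme of serine synthesis, had 8.35 and 8.51, against 9.43 and 9.33 (1.93-fold lower, adjusted p = 0.0768). With PSAT1, described above at 3.55-fold lower, and DDIT4 and SESN2, these members were lower in both INK128 arrays. The list shares members with those of the synthetases and of serine synthesis. The count was 5 without DMSO array 1 and 10 without INK128 array 1. The list of serine, one-carbon and nucleotide synthesis had 7 of 23 genes lower and 0 higher, among them CTPS1, which makes CTP, with 8.12 and 7.47, against 8.75 and 8.89. That count was 4 without DMSO array 1, 3 without DMSO array 2, 4 without INK128 array 2 and 11 without INK128 array 1.

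Of 17 tested aminoacyl-tRNA synthetases, which charge tRNAs with their amino acids, 6 were lower at an unadjusted p under 0.05 and 0 higher (median -0.34). The median was -0.19 in INK128 array 1 and -0.43 in INK128 array 2. GARS1, the glycine enzyme, had 9.03 and 8.82 with INK128, against 9.71 and 9.78 with DMSO (1.77-fold lower, adjusted p = 0.0919). AARS1, the alanine enzyme, had 9.15 and 8.40, against 9.54 and 9.51. WARS1, the tryptophan enzyme, had 7.41 and 7.23, against 7.94 and 7.72. These differences were small beside those of ASNS and PSAT1, and the count was 1 without DMSO array 1, 3 without DMSO array 2 and 1 without INK128 array 2. The ATF4 composite element (TGATGNAA) was present in 6 of 14 synthetase promoters (42.9%) and 4 of 17 promoters of ATF4 targets (23.5%), beside 3.67% of all promoters and 1.41% of those of tested genes. The promoters of ASNS and AARS1, those with the smallest p among the members with a match, are shown with the element in capitals, on the minus strand in AARS1.
ASNS promoter, chr7:97872359-97872658, minus strand: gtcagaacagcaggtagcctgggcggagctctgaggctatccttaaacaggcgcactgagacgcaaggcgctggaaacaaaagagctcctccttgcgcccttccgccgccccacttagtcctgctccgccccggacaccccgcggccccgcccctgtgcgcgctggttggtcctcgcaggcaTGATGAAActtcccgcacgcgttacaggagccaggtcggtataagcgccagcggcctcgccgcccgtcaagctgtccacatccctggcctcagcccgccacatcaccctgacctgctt
AARS1 promoter, chr16:70289457-70289756, minus strand: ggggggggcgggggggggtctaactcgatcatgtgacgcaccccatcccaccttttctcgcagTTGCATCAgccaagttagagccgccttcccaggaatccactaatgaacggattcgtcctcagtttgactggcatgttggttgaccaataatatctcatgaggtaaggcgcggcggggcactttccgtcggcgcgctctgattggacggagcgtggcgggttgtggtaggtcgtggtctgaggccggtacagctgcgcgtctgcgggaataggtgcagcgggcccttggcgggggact

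In lipid synthesis single enzymes stood out, while the list medians lay near that of all genes. IDI1, isopentenyl-diphosphate isomerase of the sterol pathway, had 6.0 and 6.45 with INK128, against 7.74 and 7.51 with DMSO (2.65-fold lower, adjusted p = 0.0696). HMGCS1, an early enzyme of the same pathway, had 7.95 and 7.83, against 8.50 and 8.65. Of 16 cholesterol genes 3 were lower and 1 higher at an unadjusted p under 0.05, with a median of -0.18, and with 1 array left out 2 to 5 were lower. Among all tested genes 9.73% were lower and 5.94% higher at that p. The median of the cholesterol genes was -0.03 in INK128 array 1 and -0.45 in INK128 array 2. SCD, the stearoyl-CoA desaturase, had 8.92 and 9.74, against 10.70 and 10.29 (2.24-fold lower, adjusted p = 0.112). ELOVL6, a fatty acid elongase, had 7.70 and 7.95, against 8.60 and 8.86. THRSP, a lipogenic factor of liver and fat, differed the other way, with 8.97 and 7.76, against 6.72 and 7.46. Over the 15 fatty acid genes 2 were lower and 1 higher, or 5 lower without INK128 array 1. The sterol element (TCACNCCA) was present in 3 of 14 cholesterol gene promoters (21.4%), beside 3.93% of all.

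Of 15 tested outputs of the MAP kinase pathway 7 were higher with INK128 and 1 lower at an unadjusted p under 0.05, and 7 did not pass. In all, 12 had both INK128 arrays above both DMSO arrays, beside 20.6% of all tested genes. The median was 0.67, with 0.82 in INK128 array 1 and 0.66 in INK128 array 2. The feedback inhibitors of the pathway led the list. SPRY4 had 9.76 and 10.10 with INK128, against 8.79 and 8.47 with DMSO (2.46-fold higher, adjusted p = 0.0724). SPRY2 had 10.21 and 9.65, against 8.84 and 8.97 (2.04-fold higher). The phosphatases of the MAP kinases were alike in direction. DUSP4 had 7.08 and 6.97, against 5.92 and 5.76 (2.27-fold higher), and DUSP6, which is specific for ERK, had 8.78 and 8.12, against 7.68 and 7.23 (1.99-fold higher). Both DMSO signals of DUSP4 lay under the filter value of 6.54, so its place among the tested genes rested on arrays other than these. ETV4, an ETS transcription factor downstream of ERK, had 10.30 and 10.13, against 9.13 and 9.37 (1.95-fold higher, adjusted p = 0.0696). ETV5 had 9.06 and 9.25, against 8.53 and 8.39, and MYC had 8.79 and 8.20, against 7.94 and 7.71. EPHA4 was the member that was lower, with 6.31 and 6.13, against 6.62 and 6.72. None of the list was called, and the higher count was 4 without DMSO array 2. An AP-1 motif (TGANTCA) or an ETS motif (CCGGAAG) was present in 0 of 6 promoters found for this list, beside 7.76% and 10.7% of all promoters. Immediate early genes, which respond fastest to ERK, had a median of 0.15 with 1 of 21 higher (MYC), or 5 higher without INK128 array 2: EGR1 had 11.45 and 11.64, against 11.50 and 10.30, with overlap between the groups.

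Among receptors and targets tied to FOXO factors, which Akt holds out of the nucleus, EGFR was called and 5 of 21 genes were higher at an unadjusted p under 0.05, with 0 lower and a median of 0.15. TXNIP, an inhibitor of thioredoxin and glucose uptake, had 10.05 and 9.30 with INK128, against 8.37 and 8.25 with DMSO (2.57-fold higher, adjusted p = 0.0696). IRS2, an adaptor of the insulin receptor, differed by 0.66, FBXO32, a ubiquitin ligase of muscle atrophy, by 0.83 and BCL6, a repressor, by 0.44. Other growth factor receptors had smaller differences, 0.39 for IGF1R, 0.36 for MET, 0.26 for INSR and 0.01 for ERBB3, none with an unadjusted p under 0.05. The count of 5 was 2 without DMSO array 1, 3 without DMSO array 2 and 3 without INK128 array 1. ARRDC4, a relative of TXNIP, had 9.18 and 8.80, against 8.03 and 7.85 (2.07-fold higher). H6PD, of the pentose phosphate pathway in the endoplasmic reticulum, had 8.45 and 7.73, against 7.25 and 6.73 (2.14-fold higher). The glycolysis list as a whole had a median of 0.05, with 3 of 17 genes higher and 2 lower. Among all tested genes 5.94% were higher and 9.73% lower at an unadjusted p under 0.05. Without DMSO array 1 there were 0 lower, 1 without each of DMSO array 2 and the INK128 arrays, and without INK128 array 2 there were 5 higher. The FOXO motif (GTAAACA) was present in 1 of 17 promoters of the FOXO list, that of TXNIP, beside 3.41% of all.

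Of 23 tested extracellular matrix genes 9 were higher with INK128 and 1 lower at an unadjusted p under 0.05, 13 did not pass and 0 were called. In all, 16 had both INK128 arrays above both DMSO arrays, beside 20.6% of all tested genes. The median was 0.35, with 0.44 and 0.37 in the INK128 arrays. FBN1, fibrillin of the microfibrils, had 7.29 and 6.81 with INK128, against 5.97 and 5.70 with DMSO (2.32-fold higher, adjusted p = 0.0883). Its DMSO signals both lay under the filter value of 6.54, so its place among the tested genes rested on arrays other than these. TNC, tenascin, had 11.05 and 10.78, against 10.06 and 9.89 (1.92-fold higher, adjusted p = 0.0768). HSPG2, perlecan of basement membranes, had 9.60 and 9.26, against 8.62 and 8.36. LTBP2, a binding protein of microfibrils, had 8.29 and 7.95, against 7.19 and 7.13. FN1, fibronectin, had 13.02 and 12.72, against 12.39 and 12.12. In each of these genes array 1 was higher than array 2, and both were above DMSO. EFEMP1, a fibulin, was the member that was lower, with 8.13 and 8.35, against 8.75 and 8.81. The higher count was 4 without DMSO array 2 and 4 without INK128 array 1.

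Epithelial genes differed one by one. Next to SCEL, PPL, which encodes periplakin of desmosomes and the cornified envelope, had 10.08 and 9.0 with INK128, against 8.18 and 7.86 with DMSO (2.87-fold higher, adjusted p = 0.0768). The other 16 tested genes of squamous differentiation held 2 with a lower value at an unadjusted p under 0.05, KRT4 and GRHL1, and the list median was 0.04. With either DMSO array left out 0 were lower, without INK128 array 1 there were 4 lower, and without INK128 array 2 there were 4 higher in place of 2. Of 25 cell junction genes 4 were higher and 0 lower, beside 5.94% higher and 9.73% lower among all tested genes. ILDR1, of tricellular junctions, had 7.75 and 7.31, against 6.42 and 6.19 (2.34-fold higher), and CLDN4, a claudin, had 6.90 and 6.75, against 6.34 and 6.06. The DMSO signals of ILDR1 and CLDN4 lay under the filter value of 6.54, which was applied to means that included INK128 arrays. Without DMSO array 2 the junction count was 1.

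Lysosomal genes were in part higher. Of 22 tested genes 6 were higher and 1 lower at an unadjusted p under 0.05, beside 5.94% higher and 9.73% lower among all tested genes. The median was 0.29, with 0.45 in INK128 array 1 and 0.13 in INK128 array 2. CTSF, cathepsin F, had 8.41 and 7.57 with INK128, against 7.06 and 6.59 with DMSO (2.25-fold higher, adjusted p = 0.107). CTSO, cathepsin O, had 8.47 and 8.59, against 7.21 and 7.79 (2.05-fold higher). The sulfatases ARSA and SGSH differed by 0.67 and 0.62, in the direction of ARSG, and CTSC, cathepsin C, by -0.45. CD68, a glycoprotein of lysosome membranes that stood outside the list, had 10.00 and 10.18, against 9.04 and 8.99 (2.10-fold higher, adjusted p = 0.0571). The count of 6 was 3 without DMSO array 1, 2 without DMSO array 2 and 10 without INK128 array 2. Autophagy genes had a median of -0.02, with 1 of 25 higher and 3 lower, or 1 lower without DMSO array 1 or INK128 array 2 and 0 lower without DMSO array 2. The E-box (CACGTG) was present in 7 of 13 lysosomal promoters (53.8%), beside 7.43% of all promoters and 10.2% of those of tested genes. The promoter of CTSF is shown since it had the smallest p among the lysosomal genes with a match, and the capitals mark its 2 E-boxes.
CTSF promoter, chr11:66568557-66568856, minus strand: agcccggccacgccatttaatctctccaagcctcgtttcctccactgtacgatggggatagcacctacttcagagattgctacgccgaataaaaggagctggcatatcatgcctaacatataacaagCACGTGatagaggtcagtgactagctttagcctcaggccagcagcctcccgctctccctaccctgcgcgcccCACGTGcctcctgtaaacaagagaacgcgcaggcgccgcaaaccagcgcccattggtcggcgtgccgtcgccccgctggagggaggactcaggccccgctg

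The tested genes of ribosomes and mitochondria showed no common direction in the pair of INK128 arrays. Only part of these families was tested, 36 of 79 listed cytosolic ribosomal protein genes and 12 of 73 listed respiratory chain genes. Of 36 cytosolic ribosomal protein genes 2 were higher and 0 lower at an unadjusted p under 0.05 (median 0.08), but the median was 0.31 in INK128 array 1 and -0.20 in INK128 array 2, and 31 of the 36 were lower in array 2 than in array 1. Without INK128 array 1 there were 4 lower, and without INK128 array 2 there were 8 higher. RPS6, a substrate of the mTOR pathway as a protein, had 9.34 and 8.74 with INK128, against 8.87 and 8.87 with DMSO. Ribosomal protein genes have many processed copies, so that probesets may take up signal from several. Over 12 respiratory chain genes the median was 0.25 in array 1 and -0.54 in array 2, with 0 genes at an unadjusted p under 0.05 over both arrays, 6 lower without INK128 array 1 and 2 higher without INK128 array 2. Mitochondrial import genes had medians of 0.05 and -0.44. For these lists the sign of the difference from DMSO depended on the INK128 array. What sets the 2 arrays apart was not tested.

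Ribosome biogenesis factors had a median of -0.19, with 5 of 40 genes lower and 1 higher at an unadjusted p under 0.05, or 12 lower without INK128 array 1, 3 without DMSO array 1 and 2 without DMSO array 2. In the main fit 12.5% of these factors were lower and 2.5% higher, near the 9.73% and 5.94% of all tested genes. The median of these factors was -0.05 in INK128 array 1 and -0.41 in INK128 array 2. NOL11, a factor of pre-rRNA synthesis, had 10.46 and 10.40 with INK128, against 11.14 and 11.41 with DMSO. NOB1, the nuclease that finishes the small subunit RNA, differed the other way, with 11.39 and 10.89, against 10.14 and 10.15. In RNA polymerase III, next to POLR3G, the large subunit POLR3B had 8.36 and 8.19, against 8.92 and 9.06, and none of the other 4 tested subunits had an unadjusted p under 0.05. Among 10 tested translation factors and other direct outputs of complex 1, EIF4B alone had an unadjusted p under 0.05, with 11.79 and 11.51, against 11.08 and 11.21, and 4 were higher without INK128 array 2.

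**Figure D4:**
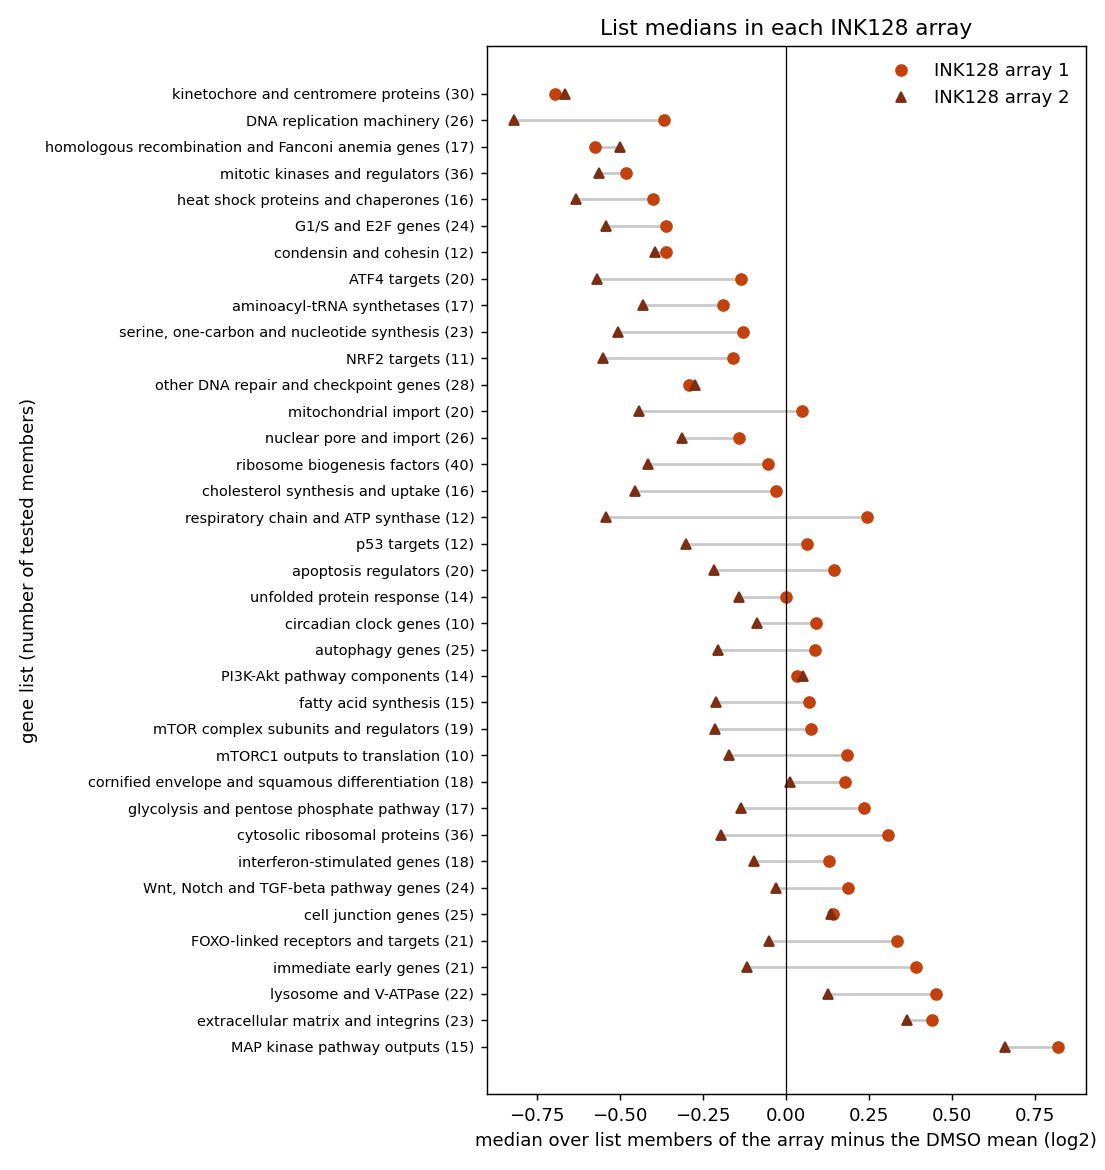
Median over the tested members of each of 37 gene lists (rows, number of members in brackets) of the log2 signal minus the DMSO mean (horizontal axis), in INK128 array 1 (circles) and INK128 array 2 (triangles). In 33 of 37 lists array 2 lies lower, in 16 the medians differ in sign, and kinetochore genes (-0.70 and -0.66) and extracellular matrix genes (0.44 and 0.37) are among those alike in both arrays.

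Heat shock proteins and chaperones had 6 of 16 genes lower and 0 higher at an unadjusted p under 0.05 (median -0.50). HSPH1, a large chaperone of the HSP110 family, had 9.91 and 9.74 with INK128, against 10.38 and 10.44 with DMSO, and HSPA4, of the same family, had 10.21 and 9.69, against 10.57 and 10.73. The count was 0 without DMSO array 2, 2 without INK128 array 2 and 3 without DMSO array 1. Genes of the unfolded protein response, by contrast, had a median of -0.09, with 1 of 14 higher. Of the p53-linked genes, TIGAR, a regulator of glycolysis, had 6.88 and 6.26, against 7.94 and 8.09 (2.72-fold lower, adjusted p = 0.0768). PMAIP1, which encodes the death factor NOXA, had 7.37 and 6.13, against 8.40 and 8.15 (2.88-fold lower, adjusted p = 0.105). APAF1, the core of the apoptosome, had 7.46 and 7.36, against 8.16 and 8.21. PMAIP1 stands in both the p53 and the apoptosis list, so their counts are not separate. Among all tested genes 9.73% were lower and 5.94% higher at an unadjusted p under 0.05. In all, 3 of 12 p53 targets and 4 of 20 apoptosis regulators were lower, with 1 higher in each list, or 4 higher apoptosis regulators without INK128 array 2.

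Further lists are given by counts at an unadjusted p under 0.05, beside 9.73% lower and 5.94% higher among all tested genes. Components of the PI3K-Akt pathway had 1 of 14 higher and 0 lower, Wnt, Notch and TGF-beta pathway genes 0 of 24 in either direction, or 4 higher without INK128 array 2, interferon-stimulated genes 1 of 18 higher and 3 lower, or 0 lower without DMSO array 1, and circadian clock genes 1 of 10 higher and 2 lower. NRF2 targets had 1 of 11 lower, or 6 without INK128 array 1 and 0 without INK128 array 2 or either DMSO array, nuclear pore and import genes 5 of 26 lower and 1 higher, or 8 lower without INK128 array 1, 2 without DMSO array 1, 1 without INK128 array 2 and 0 without DMSO array 2, and mitochondrial import genes 3 of 20 lower, or 8 without INK128 array 1 and 0 without DMSO array 1 or 2. In polyamine synthesis 1 of 9 was lower, AMD1, S-adenosylmethionine decarboxylase, which had 10.12 and 10.01 with INK128, against 10.84 and 11.16 with DMSO, or 4 of 9 lower without INK128 array 1.

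Most of the epithelial markers that the array held, 17 of 20 listed, gave a signal above the filter. They are markers of the tissue of origin and not of the OVCAR-3 line itself. Of 17 markers of ovarian serous and Mullerian epithelium on the array 16 were above the filter, among them PAX8, the lineage factor, with 12.33 and 12.29 with INK128, against 11.99 and 12.06 with DMSO. At an unadjusted p under 0.05 MSLN, KRT18 and CLDN4 were higher by 0.76, 0.74 and 0.63, while CRABP2 and WT1 differed by -0.93 and -0.51. Of 7 leukocyte markers on the array only CD68 was above the filter. The summed linear signal of the 7 was 1345 and 1472 with INK128, against 843 and 806 with DMSO, and CD68 made up most of it. Of 7 endothelial markers 2 were above the filter, CLDN5 and ERG, and of 3 fibroblast markers 0. ERG had 7.96 and 8.06 with INK128, against 8.52 and 8.66 with DMSO, and was lower at an unadjusted p under 0.05. In bulk RNA a lower signal of cell division genes cannot be told apart between fewer dividing cells and less mRNA in each.

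Polysome RNA of the same treatments, on 3 arrays each, is given beside total RNA as values without a test. Total RNA was taken from lysates used for polysomes, so that these arrays are not all independent of those of total RNA. With 3 against 2 arrays, at least 1 polysome array a group has no partner here. In the study's supplementary tables, DMSO polysome arrays 1 and 3 carry the same numbers as DMSO total RNA arrays 1 and 2. For all 20 genes with the smallest p, 10 in each direction, the 3 INK128 polysome arrays lay on the same side of the 3 DMSO polysome arrays as in total RNA. These genes were picked by their total RNA values. The share of all tested genes for which the same held is not given here, so the count has no background beside it. SCEL had polysome signals of 10.27, 10.04 and 10.07 with INK128, against 8.14, 8.62 and 8.51 with DMSO, and EGFR had 10.25, 10.21 and 10.28, against 8.63, 9.35 and 9.06. PI15 had 6.26, 6.66 and 7.03, against 8.80, 9.41 and 9.55. The mean differences were 1.70 for SCEL, 1.24 for EGFR and -2.61 for PI15 in polysome RNA, beside 1.55, 1.09 and -3.07 in total RNA. EIF4EBP1 had a mean polysome difference of -0.66 beside -0.13 in total RNA.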

How the data were processed

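Total RNA was hybridised to Human Gene 2.0 ST arrays (Affymetrix). The deposited values are log2 signals, which the authors made with RMA in Expression Console 1.4.1, for 53617 probesets with 0 missing values. Array medians lay between 4.97 and 5.13, and raw intensities were not used here. The genome build behind the probesets is not given in the sources used here. GEO's platform annotation gave 16098 probesets a single symbol, and keeping the brightest of each symbol left 14884 genes. The 7442 genes at or above the median of these means (6.54) were tested. The means included INK128 arrays, so a gene with DMSO signals under 6.54 could enter the test through its INK128 signals. Among the genes named as higher, this applied to CRLF2, DUSP4, FBN1, ILDR1 and CLDN4. How many of the other higher genes entered in this way was not counted.

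A limma model (limma 3.58.1 in R 4.3.3) was fitted over 7 arrays in 3 groups (4 residual and 6.09 prior degrees of freedom). Carboplatin array 1 and both combination arrays were left out of the fit because the study's supplementary tables give their values under another treatment or fraction than the labels. The study describes its replicates as independently performed. Whether equal replicate numbers mark the same experiment is not given by the labels, and the main fit did not pair the arrays. The fitting step was checked beforehand on simulated signals, which had the same spread in all groups for a given gene. In the data the SD across genes of the replicate difference was 0.4525 for INK128 and 0.1807 for DMSO. The check therefore does not cover this unequal spread.

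The members and the 40 pathway and 4 marker lists were chosen with earlier results of these data known. Named are the 10 genes with the smallest p in each direction, called list members and the mTOR genes. All other genes were named after their values were seen. Where a single INK128 or DMSO array was left out, the remaining one was assumed to vary like the other groups. Alternatives were no filter, a filter at the 75th percentile, repeated quantile normalization, centring on array medians, the 4 arrays alone, all 10 total RNA arrays, all named probesets, an intensity trend, array weights, a replicate block and each array left out. Promoters were matched by symbol to RefSeq sequences.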

Additional observations from a re-analysis of the deposited data

How the results depend on the processing

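The number of genes called depended on the settings. Against 12 in the 7 arrays, 19 genes were called with no filter and 0 with arrays centred on their medians, with only the 4 arrays compared, with all 10 total RNA arrays, with all named probesets or with a replicate block. The smallest adjusted p in these 5 settings was 0.0692, 0.159, 0.322, 0.0553 and 0.0554, and 821 to 1237 genes had an unadjusted p under 0.05. The cause was not tested. The setting of all 10 arrays followed the labels, and so held carboplatin array 1 and both combination arrays. The study's supplementary tables place the values of these arrays under another treatment or fraction. The replicate block gave 0 calls. Whether equal replicate numbers mark the same experiment is not given by the labels. DMSO array 2 carries the number 3 in the study's supplementary tables. The deviations of equal numbers correlated across genes at -0.02, which cannot settle whether the arrays were paired. With 1 array left out 0 to 32 genes were called. By the methods' thresholds 44 genes passed with the filter at the 75th percentile, where fewer genes are tested, against 96, and 85 to 245 with 1 array left out. The filter at the 75th percentile left 3 ATF4 targets and 3 heat shock genes lower (6 of these before), and 5 extracellular matrix and 2 lysosomal genes higher (6 of these before). With all 10 total RNA arrays 6 G1/S genes were lower, against 12. With 1 array left out 9 to 24 mitotic genes, 10 to 21 replication genes and 5 to 10 ATF4 targets were lower, and 4 to 9 MAP kinase outputs and 4 to 11 extracellular matrix genes were higher. Kinetochore genes stayed within 1.5 times the count of 21 in every alternative. All 12 called genes kept their direction in every alternative that tested them, which is no test of the calls. Most alternatives left the log2 change as it was. With both INK128 arrays on the same side of both DMSO arrays, leaving 1 array out could not turn the sign. With 2 arrays a side, signals near the background and differences well under 1 log2 unit could not be resolved.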
